A study of Caenorhabditis elegans with 2 samples.

Results

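The genes described are 10 that encode enzymes of branched-chain amino acid breakdown in Caenorhabditis elegans, out of 19973 protein-coding genes on the nuclear chromosomes. They are not all genes of the pathway, and genes of later steps are listed apart. They were taken by name as genes of the pathway, with earlier results of these data known: bcat-1, bckd-1A, bckd-1B, dbt-1, dld-1, acdh-3, acdh-9, ivd-1, mccc-1 and mccc-2. RefSeq product names place each of the 10 at its step of the pathway. The nuclear hormone receptor NHR-10 was mapped by chromatin immunoprecipitation and sequencing (ChIP-seq) in whole L2 larvae of strain OP239, which carries the unc-119(ed3) mutation on chromosome III and the transgene wgIs239. The transgene gives stable expression of NHR-10 with GFP-FLAG at its C terminus. Males and females were pooled, and their age was not given. There was 1 group with 2 biological replicates, so no condition was compared with another. Whole larvae mix all tissues, so a region cannot be placed in the intestine or in any other tissue.

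Leucine, isoleucine and valine are broken down in mitochondria. BCAT-1 first moves the amino group away, and the resulting ketoacids are decarboxylated by the branched-chain ketoacid dehydrogenase complex. BCKD-1A and BCKD-1B form its decarboxylating component, DBT-1 its acyltransferase core, and DLD-1 the dihydrolipoyl dehydrogenase that it shares with other complexes. Acyl-CoA dehydrogenases then act on each branch, and the leucine branch goes on through methylcrotonyl-CoA carboxylase, made of MCCC-1 and MCCC-2. Isoleucine and valine yield propionyl-CoA, the substrate of the propionate shunt that NHR-10 is known to switch on together with NHR-68.

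The deposited regions each carry a signal value of the authors, which was used to rank regions within 1 list. A region was counted for a gene when its summit lay within 2000 bp of an annotated start or within the gene body. The pooled list held 30000 regions with a median signal of 8.38. The list thresholded by irreproducible discovery rate, a measure of agreement between ranked lists, is the one labeled optimal. It held 491 peaks and was the same set as the 491 highest regions of the pooled list. A replicate 1 region overlapped 466 of the 491, so a thresholded peak was not always found in both replicates. The replicate 1 list held 22993 regions with signal from 2.00 to 53.1 (median 3.12), and the replicate 2 list 30000 with signal from 4.80 to 176 (median 6.86). The lists used hold no read counts. Sequencing depth is therefore unknown, and no interval was computed for a signal.

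By this rule 8 of the 10 genes had at least 1 pooled region, 20 regions in all, and dbt-1 and dld-1 had a thresholded peak. Over all protein-coding genes 73.8% had a pooled region and 3.59% a thresholded peak. Among the 7948 genes whose length lay between those of the shortest and the longest of the 10 (1740 to 4620 bp) the shares were 74.5% and 3.25%. The count with a pooled region is thus near the background, while 20% had a thresholded peak, a share that rests on 2 genes already known to have a peak when the list was drawn up. No test of the list was made.

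The sequences under the summits of the 3 regions of highest signal are shown because they are the ones in or next to the thresholded list. They are from the RefSeq genome on WBcel235 (ce11), read 5′ to 3′ on the strand of the gene and upstream of its first annotated start. Capitals mark any of 6 words searched on both strands: the nuclear receptor core words AGTTCA and the related AGGTCA, the repeat word GAGAGA, the core of GATA factor sites TGATAA, the E-box CACGTG, and the word GACGCA that was frequent at peaks in earlier results of these data. No marked word overlaps another. The dbt-1 stretch is chrII:7945214-7945413 on the minus strand, the dld-1 stretch chrIV:14464187-14464386 on the plus strand and the acdh-9 stretch chrII:848604-848704 on the minus strand, where it ends at the start of the gene.
dbt-1: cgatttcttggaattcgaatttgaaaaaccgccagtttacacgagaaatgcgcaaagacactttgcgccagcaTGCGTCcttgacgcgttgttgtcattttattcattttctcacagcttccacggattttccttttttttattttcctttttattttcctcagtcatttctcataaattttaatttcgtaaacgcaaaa
dld-1: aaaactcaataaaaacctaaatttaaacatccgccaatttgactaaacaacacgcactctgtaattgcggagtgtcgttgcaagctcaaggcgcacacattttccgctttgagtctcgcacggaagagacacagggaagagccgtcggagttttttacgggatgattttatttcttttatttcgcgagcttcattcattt
acdh-9: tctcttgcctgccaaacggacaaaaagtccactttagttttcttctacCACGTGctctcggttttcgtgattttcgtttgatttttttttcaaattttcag

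In the dbt-1 stretch the capitals are GACGCA read on the other strand, in the dld-1 stretch no word was found, and in the acdh-9 stretch they are CACGTG, which reads the same on both strands. The whole 200 bp window at acdh-9 also held AGTTCA, in the part beyond the gene start that is not shown. GACGCA was in 5.67% of the same windows over all 30000 pooled regions, CACGTG in 3.80% and AGTTCA in 12.7%. A match describes these letters only.

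The first step is carried out by the transaminase BCAT-1. Its gene, bcat-1, lies on X from 12877480 to 12880328 on the plus strand and had 4 pooled regions of low rank. The highest had signal 9.67 and rank 10158, in a coding exon 1924 bp downstream of the start. It was overlapped by a region of signal 4.23 in replicate 1 and of signal 8.80 in replicate 2. The region nearest to the start, 45 bp upstream, had signal 8.96 in the pooled list and 9.78 in replicate 2, and none overlapped it in replicate 1. The other pooled regions of the gene had signals of 8.73 and 8.61. All 4 lay between 1.03 and 1.15 times the list's median.

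Replicate 1 alone had a high region at bcat-1. Its summit was at 12878942, in a coding exon 1462 bp downstream of the start, with signal 10.4, which is 3.33 times that list's median. It ranked 290 of 22993. No pooled region overlapped it, and the nearest summit of replicate 2 was 428 bp away, in a region of signal 8.80 and rank 7577 that shared 2 bases with it. The replicates therefore differ at bcat-1 in which region is highest.

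The ketoacid dehydrogenase complex had both thresholded peaks, at its core and at its shared subunit, and none at its decarboxylating subunits. The highest region of the 10 genes was that of dbt-1, which lies on II from 7942602 to 7945206 on the minus strand. Its summit at 7945314 was 108 bp upstream of the start, with pooled signal 32.1 and rank 343. In replicate 1 the overlapping region had signal 7.54 and rank 838 (the highest 3.64% of the list), and in replicate 2 signal 23.6 and rank 404 (1.35%). Both replicates thus place the dbt-1 promoter near the top of their lists, at 2.41 and 3.44 times the list median, with summits 63 and 4 bp from the pooled summit. The other dbt-1 region, in an intron 618 bp downstream of the start, had signal 7.27, was overlapped in replicate 2 (7.05) and had no counterpart in replicate 1. The only other coding gene with a start within 2000 bp of the promoter summit was ZK669.5, 1563 bp away.

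The gene of the shared dihydrolipoyl dehydrogenase, dld-1, lies on IV from 14464517 to 14469136 on the plus strand. Its peak had a summit at 14464287, 230 bp upstream of the first start, with pooled signal 29.7 and rank 412. In replicate 2 the overlapping region had signal 21.6 and rank 502, or 3.14 times the list median. In replicate 1 it had signal 2.40 and rank 18116 (78.8% of the way down the list), or 0.768 times the median and close to the lowest signal listed. The dld-1 peak is thus high in replicate 2 and low in replicate 1. Of the 491 thresholded peaks, 466 were overlapped in replicate 1, with a median rank at 1.94% of the list. In 18 of them (3.67%) the overlapping region lay in the lower 50% of that list, and dld-1 is one of the 18. In replicate 2 all 491 were overlapped, and for none was the overlapping region in the lower 50%.

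The dld-1 summit also lay 327 bp from a start of nspg-9, on the same strand. The other pooled regions of dld-1 were a coding exon region 506 bp downstream of the start (signal 10.4) and regions 1628 and 1424 bp upstream (8.64 and 6.70). The summits of the upstream regions lay in an intron of nspg-9, whose start was nearer to them. With the region lists alone, signal there cannot be divided between dld-1 and nspg-9.

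The genes of the decarboxylating component had no peak. The gene bckd-1A, on the minus strand of III from 12967898 to 12972498, had 1 pooled region, with signal 12.1 and rank 5031. Its summit at 12972024 was in an intron of the longer transcripts and 204 bp upstream of the start nearest to it. Replicate 2 had an overlapping region of signal 11.2 and rank 3472, and replicate 1 had none within reach of the gene. The pooled signal was 1.44 times the list median. The partner gene bckd-1B, on I from 7727257 to 7729092 on the plus strand, had no region in the pooled list or in either replicate list. The nearest pooled summits to it were beyond the distance limit, 2107 bp downstream (signal 7.78) and 2484 bp upstream (signal 15.4, rank 2226) of its start. With the upstream region counted, bckd-1B would stand between acdh-9 and ivd-1 in highest pooled signal.

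**Figure D1:**
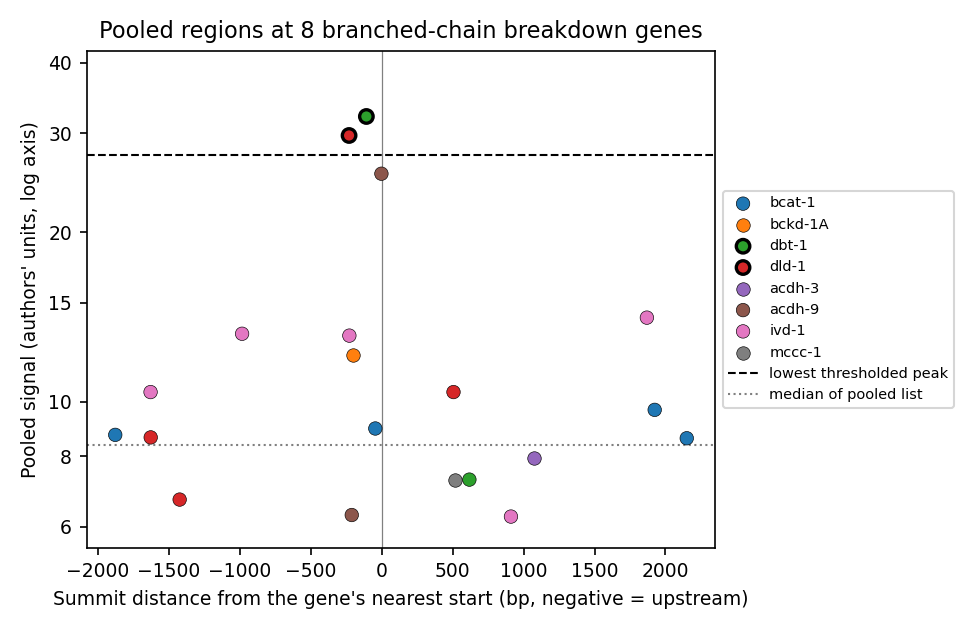
Pooled signal of each of the 20 regions (log axis) against the distance of its summit from the nearest start of its gene in bp, colored by gene, with thick outlines for thresholded peaks, a dashed line at the lowest thresholded signal (27.4) and a dotted line at the list median (8.38). The regions of dbt-1 (32.1), dld-1 (29.7) and acdh-9 (25.4) stand above all others, which reach 14.1 at most, and all 3 lie within 230 bp upstream of a start.

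The acyl-CoA dehydrogenase genes differed in level. The gene acdh-9, annotated as isobutyryl-CoA dehydrogenase of the valine branch, lies on II from 846864 to 848603 on the minus strand. Its region had a summit at 848605, 2 bp upstream of the start, with pooled signal 25.4. It ranked 575, which is 84 places below the lowest thresholded peak (signal 27.4, rank 491). In replicate 2 the overlapping region had signal 22.6 and rank 447 (3.29 times the median), and in replicate 1 signal 2.90 and rank 13293 (0.928 times the median). As at dld-1, replicate 2 was high here and replicate 1 was not. The promoter is divergent, with F28A10.13 starting 207 bp from the summit on the plus strand. A lower region with its summit in the 5′ UTR of F28A10.13 had pooled signal 6.29 and rank 27846, but signal 10.9 and rank 3803 in replicate 2.

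At acdh-3, the short and branched-chain acyl-CoA dehydrogenase gene on I from 6464195 to 6466941 on the minus strand, the 1 pooled region was in an intron 1074 bp downstream of a start. Its signal was 7.95 and its rank 17037, below the list median. Replicate 2 overlapped it with signal 5.87, and replicate 1 did not overlap it. Replicate 1 had instead a region of signal 4.69 and rank 4082 downstream of the gene, 1980 bp from a start. A pooled region of signal 13.6 and rank 3383 lay 2035 bp from that start, just beyond the limit, and with it counted acdh-3 would stand between ivd-1 and bckd-1A in highest pooled signal. The replicates had no region in common at acdh-3.

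The leucine branch had no thresholded peak. The gene ivd-1, which encodes isovaleryl-CoA dehydrogenase, lies on IV from 5086856 to 5088864 on the minus strand and had 5 pooled regions, the most of the 10 genes. Its highest region was in the 3′ UTR, 1869 bp downstream of the start, with signal 14.1 and rank 2915, and was overlapped by regions of signal 4.38 in replicate 1 and 8.83 in replicate 2. A region 984 bp upstream had signal 13.2 and was overlapped in replicate 2 (10.9) and not in replicate 1. The region nearest to the start, 228 bp upstream, had signal 13.1 and rank 3853 in the pooled list but no overlapping region in either replicate list. The others had signal 10.4 at 1629 bp upstream, nearer to snpn-1, and 6.25 in a coding exon. The highest region of ivd-1 was above the 75th percentile of the highest regions of all genes (13.3) and below the lowest thresholded peak (27.4).

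The carboxylase genes had 1 pooled region between them. At mccc-1, on IV from 9884570 to 9887151 on the plus strand, the 1 pooled region was in a coding exon 514 bp downstream of the start, with signal 7.25 and rank 21007. It was overlapped in replicate 1 (signal 2.88) and not in replicate 2. At mccc-2, on the minus strand of III from 9086744 to 9089375, no pooled region was found. Replicate 1 had a region of signal 2.64 there in a coding exon 1987 bp downstream of the start, and replicate 2 one of signal 6.86 at 1329 bp upstream. Those regions lay apart, and neither overlapped a pooled region. Regions counted for the carboxylase genes thus lay near or below the median of their list. A pooled region of signal 11.3 and rank 6241 lay 2335 bp upstream of mccc-1, beyond the 2000 bp limit, and was not counted.

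Compared among themselves, the genes with a pooled region fell into the order dbt-1 (32.1), dld-1 (29.7), acdh-9 (25.4), ivd-1 (14.1), bckd-1A (12.1), bcat-1 (9.67), acdh-3 (7.95) and mccc-1 (7.25) by highest pooled signal. The replicates did not share this order. By the highest region of each gene in replicate 1 it ran bcat-1 (rank 290), dbt-1 (838), acdh-3 (4082), ivd-1 (5024), acdh-9 (10193), mccc-1 (13417), mccc-2 (15553) and dld-1 (18052). In replicate 2 it ran dbt-1 (rank 404), acdh-9 (447), dld-1 (502), bckd-1A (3472), ivd-1 (3831), bcat-1 (5472), mccc-2 (14972) and acdh-3 (21044). The genes dbt-1, dld-1 and acdh-9 were thus the 3 highest in replicate 2, while dld-1 was last of the 8 genes with a replicate 1 region. These orders do not always rank the same region of a gene. In replicate 1 the highest region of acdh-9 lay 779 bp upstream and that of dld-1 1771 bp upstream, away from their promoter summits. Among the 14732 genes with a pooled region, 96.5% had a lower highest signal than dbt-1, 95.8% a lower one than dld-1 and 94.5% a lower one than acdh-9. For ivd-1, bckd-1A and bcat-1 the percentages were 78.7%, 68.1% and 46.7%, and for acdh-3 and mccc-1 25.8% and 16.1%. The median over the 8 genes was 13.1, against 9.95 over all genes with a region. Since dbt-1 and dld-1 were already known to have a peak when the list was drawn up, this comparison is not independent of that choice.

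The highest region lay within 500 bp of a start in 4 of the 8 genes (dbt-1, dld-1, acdh-9 and bckd-1A), against 31.8% of all genes with a region. This count too includes dbt-1 and dld-1, whose peaks were known when the list was drawn up. Of the 20 regions, 11 lay upstream of the gene, 5 in coding exons, 3 in introns and 1 in a 3′ UTR, and 14 had a signal above the list median. In 4 of the 20 another gene had the nearest coding start. The rule takes in up to 2000 bp upstream of every start, and the shares of all counted regions by place were not computed. Nor was the share of all regions with another gene's start nearest. The counts by place and by nearest start therefore describe these 20 regions only. Just inside the 2000 bp limit was a bcat-1 region 1878 bp upstream (signal 8.73), and just outside it were an acdh-3 region at 2035 bp downstream (13.6) and an acdh-9 region at 2087 bp downstream (11.3).

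The replicates overlapped unevenly. Of the 20 pooled regions, 12 were overlapped by a replicate 1 region and 17 by a replicate 2 region, against 43.5% and 77% of all pooled regions. Regions of both replicates overlapped 11, of replicate 2 alone 6, of replicate 1 alone 1 (mccc-1), and of neither 2, both at ivd-1. The shares of all pooled regions for these combinations were not computed. At bcat-1, dld-1 and acdh-9 a single replicate 1 region overlapped neighboring pooled regions and was counted for each. A replicate 2 region at dld-1 was counted in the same way. By the rule applied to each list, 8 genes had a replicate 1 region (65.9% of all genes) and 8 had a replicate 2 region (74.1%). Among the 491 highest regions of each replicate, replicate 1 had 1 of the 10 genes, bcat-1 (3.09% of all genes), and replicate 2 had dbt-1 and acdh-9 (3.52%). The dld-1 region of replicate 2, at rank 502, was just below that limit. No gene of the 10 was among the 491 highest of both replicates. The share of all genes in both was not computed and can be no higher than 3.09%, so this count says little about the 10.

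**Figure D2:**
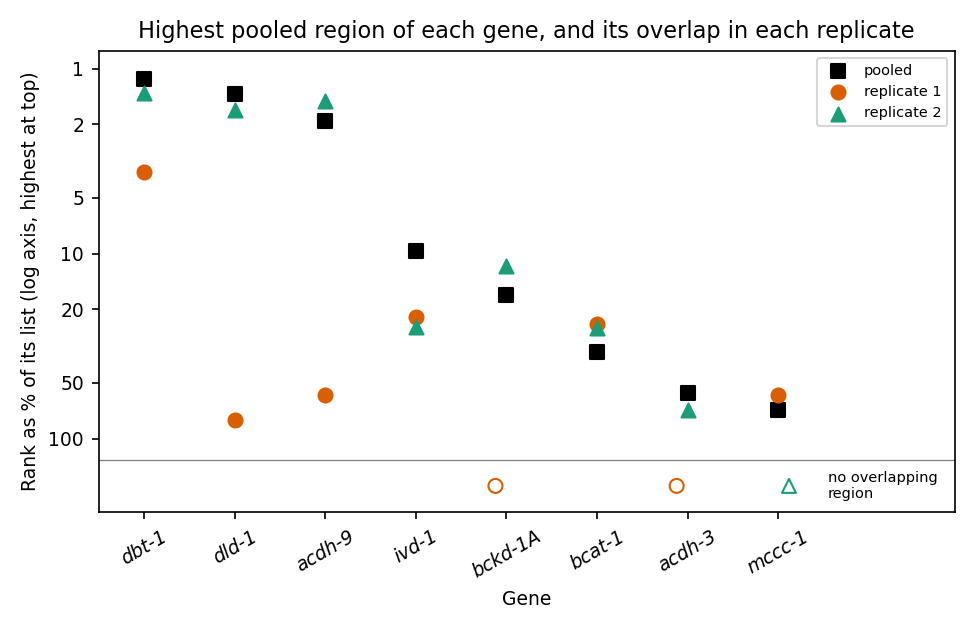
Rank of the highest pooled region of each of 8 genes as a percentage of its list (log axis, highest at the top), with squares for the pooled list, circles and triangles for the overlapping regions of replicates 1 and 2, and open symbols where none overlapped. At dbt-1 the 3 lists lie between 1.14% and 3.64%, while at dld-1 and acdh-9 replicate 2 is at 1.67% and 1.49% and replicate 1 at 78.8% and 57.8%.

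Regions ranked next to the dbt-1 and dld-1 peaks show how the replicates stand at peaks of equal pooled signal. Likeness here is only the place in the order of highest pooled signal per gene, with the 3 places above and the 3 below. Around dbt-1 these belonged to epg-8 with dsbn-1, F37C4.5 with F37C4.6, and zfp-1 above it, and to otub-2, rol-3, and dpy-17 with sax-2 below it, all with pooled signal between 32.1 and 32.2. Their replicate 1 signals ran from 2.59 at zfp-1 to 7.90 at otub-2, with none overlapping at F37C4.5 or epg-8, and dbt-1 at 7.54 lay between rol-3 (6.73) and dpy-17 (7.76). Around dld-1 they belonged to pptr-2, sdha-1, and M03C11.3 with hat-1 above it, and to pqn-51 with K11D12.14, usp-4, and C49A9.10 below it. Their replicate 1 signals ran from 6.37 at pptr-2 to 11.5 at hat-1 and pqn-51, all above the 2.40 of dld-1, while their replicate 2 signals, from 18.2 to 22.8, spanned the 21.6 of dld-1.

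Later steps of the pathway, in a list of 13 genes that act on the products of the isoleucine, valine and leucine branches, had a pooled region at all 13 and a thresholded peak at 1. This was hphd-1, the hydroxypropionate dehydrogenase of the propionate shunt, with signal 30.4, rank 393, and signals of 6.03 in replicate 1 and 22.7 in replicate 2. The median of their highest signals was 14.7, and 10 of the 13 had it within 500 bp of a start. The complexes that use the same dihydrolipoyl dehydrogenase, namely pyruvate dehydrogenase, oxoglutarate dehydrogenase and the glycine cleavage system, were represented by 9 genes other than dld-1. All 9 had a pooled region, none had a thresholded peak, and their highest signals ran from 7.49 to 12.3 with a median of 9.90. In 1 of the 9 the highest region lay within 500 bp of a start. With dld-1 counted, 1 of the 10 genes of these other complexes had a thresholded peak. Over all protein-coding genes 73.8% had a pooled region and 3.59% a thresholded peak. Among genes with a region, 31.8% had the highest within 500 bp of a start, and the median highest signal was 9.95. At a share of 3.59%, the peak counts in lists of 13 and 9 genes say little about these genes. The lists were not tested against each other.

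**Figure D3:**
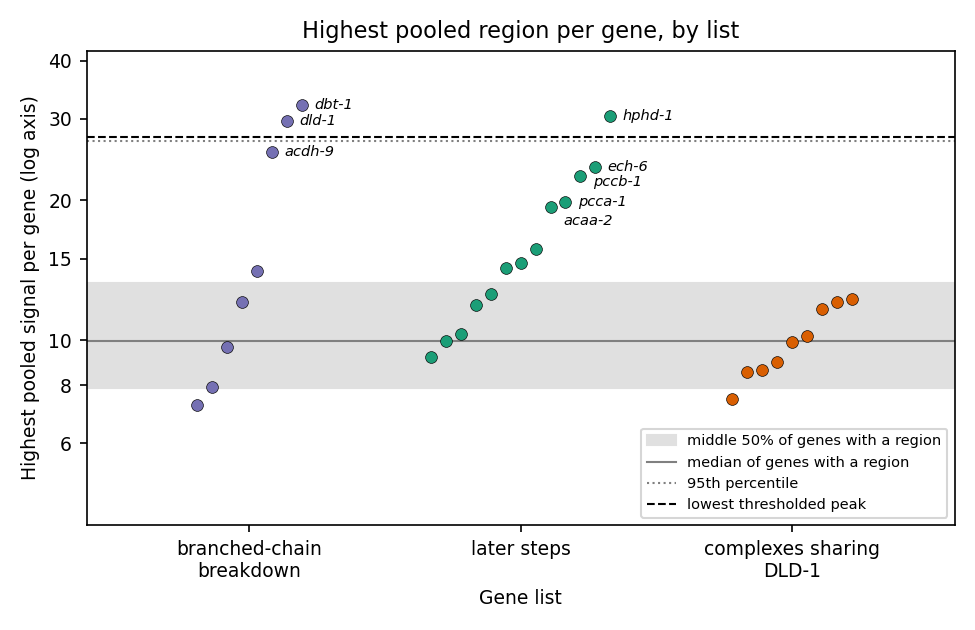
Highest pooled signal of each gene (log axis) in the 3 lists, with 1 point per gene that has a pooled region (8 of 10, 13 of 13 and 9 of 9), a band for the middle 50% of all genes with a region (7.90 to 13.3), lines at their median (9.95) and 95th percentile (26.9), and a dashed line at the lowest thresholded peak (27.4). The points of dbt-1, dld-1 and hphd-1 are above the dashed line, and all points of the complexes sharing DLD-1 lie below 13.3.

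Of the 6 words in the 200 bp windows, TGATAA and the word GAGAGA were each in 6 of the 20 regions, against 19.1% and 13.8% of all pooled regions. GACGCA was in 3 (5.67% of all), both dbt-1 regions among them. AGTTCA was in 2, the acdh-9 promoter and the dld-1 coding exon region (12.7% of all), AGGTCA in 2, at bcat-1 and ivd-1 (4.86%), and CACGTG in 2, at acdh-9 and ivd-1 (3.80%). At least 1 of the 6 words was in 14 of the 20 regions and in 46.9% of all pooled regions. GACGCA was searched because it was frequent at peaks in earlier results of these data, and the dbt-1 promoter region is a peak. Its count and that of any of the 6 words are therefore not independent of how the word was chosen. The windows of the 20 regions had a median GC content of 38.2%, between those of all pooled regions (35%) and of thresholded peaks (44%). The part of GC content in the word counts was not tested.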

How the data were processed

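NHR-10 ChIP-seq regions of 2 replicates were analysed. Each region's signal value is as deposited, in the narrowPeak layout. Per the deposited notes, replicate lists came from each replicate's alignment and a control, the pooled list from the alignments of both with the control, and the thresholded list from these 3, all on ce11. The caller, aligner, IDR cutoff and scaling between lists are not given in the sources used here. The control library was not analysed here. Lists on ce10 were not used, since gene positions are from Ensembl release 115 on WBcel235, the ce11 assembly. Coordinates are 1-based. Summits are the start plus column 10.

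Regions matched between lists when they shared at least 1 base, taking the nearest summit. Gene names in the text are the 10 members, nearest-start genes, genes of the other lists with a peak, and neighbors in rank. The members and lists were chosen with earlier results of these data known. Word windows were 200 bp. The assignment code was tested on simulated data. No statistical test was made. Python 3.11.15 and matplotlib 3.10.9 were used.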

Additional observations from a re-analysis of the deposited data

How the results depend on the processing

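The count of genes with a pooled region was 8 with starts within 1000 or 500 bp, with the gene body left out and with a single start per gene, and 6 when regions below the list median were dropped. The 2 genes with a thresholded peak, dbt-1 and dld-1, were the same under these distances, and with the nearest start only. In the upper 50% of thresholded peaks by signal 0 genes remained, since both lie in the lower 50%. In place of a thresholded list from 1 replicate, the 491 highest regions of each replicate list were taken, without thresholding. These gave dbt-1 and acdh-9 from replicate 2 and bcat-1 from replicate 1. Requiring an overlapping region in the upper 50% of both replicate lists, an alternative chosen after seeing the data, left 1 gene, dbt-1. Among the gene counts under changed settings, only those from a single replicate list have a share of all genes, given above. With summits within 100 bp, 7 of the 20 regions matched replicate 1 and 16 replicate 2. The shares of all pooled regions at this stricter match were not computed, so these counts cannot be compared with a background. With 100 bp windows, 9 of the 20 regions held a word, against 27.8% of all pooled regions. No paired analysis was possible because there was 1 group. The unknown depth limits what can be said of regions near the lowest signals of each list.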

Other observations

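Replicate 1 also had high regions at 2 genes of later steps that replicate 2 did not overlap. At kat-1, a thiolase gene, the pooled region 921 bp upstream (signal 13.0), nearer to kars-1, was overlapped in replicate 1 with signal 8.52 and rank 557 and by no region of replicate 2. At hach-1, the hydroxyacyl-CoA hydrolase gene of the propionate shunt, the pooled region in a coding exon 264 bp downstream of the start (signal 11.9) was overlapped in replicate 1 with signal 7.61 and rank 814, and by none in replicate 2. These regions were picked after their values were seen.

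Carboxylase genes of the propionyl-CoA route had regions below the threshold that were high in replicate 2. At pccb-1 the region, in an intron and 218 bp upstream of a start, had pooled signal 22.6 (rank 783). It was overlapped at rank 431 in replicate 2 and at rank 20560 in replicate 1. At pcca-1 the region 795 bp upstream had signal 19.9 (rank 1069), with 18.1 (rank 774) in replicate 2 and no overlapping region in replicate 1. These genes were also named after their values were seen.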
